A study of Rattus with 6 samples.

Results

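The genes described here carry the symbols of mitochondrial ribosomal proteins and were measured in the rat cell line RC-4B/C, derived from a pituitary adenoma. Members were all genes of the deposited exon table whose symbol begins with Mrpl or Mrps followed by a digit. This rule took 71 of 12801 genes, 42 named for the large subunit (Mrpl) and 29 for the small subunit (Mrps), with 350 listed exons. Polyadenylated RNA was sequenced from 3 libraries treated with aspirin (acetylsalicylic acid, ASA) and 3 treated with the solvent dimethyl sulfoxide (DMSO). The labels define the single comparison of ASA with DMSO. They give no dose, duration or genotype. Whether replicates were separate cultures is not stated either, and the p-values therefore cover only the spread among these 6 libraries. All results come from this single cell line. A further 7 mitoribosomal genes with Mrp symbols, all named for the large subunit, had no row under their symbol and were not analysed. Sums and medians of the large subunit leave them out.

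Mitochondrial ribosomes translate the few messenger RNAs encoded by mitochondrial DNA, all of which specify subunits of the respiratory chain or ATP synthase. Their ribosomal RNAs come from mitochondrial DNA, but every ribosomal protein is encoded in the nucleus, made in the cytosol and imported. Some of these proteins descend from bacterial ribosomal proteins and others exist only in mitochondria. The large subunit joins amino acids into chains and releases them through an exit tunnel. The small subunit binds and decodes the messenger.

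Levels are in RPKM, the reads of a gene's listed exons scaled to a kilobase and to 1000000 reads. The libraries held 66492446 to 94486059 reads in listed exons, and no member had fewer than 194 reads in any library, so counting error was small beside the spread between libraries. ASA replicate 2 stood apart from the other 5 libraries. The exons of the member genes scattered within their gene by 0.41 on the log2 scale in it, against 0.07 to 0.10 in the others. DMSO replicate 2 had less of the proliferation genes Mki67 and Pttg1 than the other controls, 16.4 RPKM of Mki67 against 55.7 and 44.8. Of 5 markers of lactotrophs and somatotrophs, 4 had rows, and the groups overlapped for each. Pou1f1, the transcription factor of these lineages, lay between 584 and 804 RPKM. The hormone gene Prl ranged from 14040 to 62170 RPKM and was highest in both libraries numbered 2, and the granule gene Chgb had 864 RPKM in ASA replicate 2 against 2359 to 3499 in the others. None of the 4 leukocyte, 3 endothelial or 1 folliculostellate marker genes searched had a row. Of 5 fibroblast markers, Dcn and Lum had rows, with a summed level of 2138 to 3279 RPKM in ASA and 1104 to 1164 in DMSO libraries. Nearly all of that sum was Dcn, which rose (log2 fold change 1.32, adjusted p = 0.0213), while Lum had overlapping groups (-0.23, adjusted p = 0.734). The part of these markers in the results below was not tested. In bulk RNA, fewer cells of a type and less RNA per cell cannot be told apart.

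In control cells the mitoribosomal genes were expressed at levels above most genes. Their median in the DMSO libraries was 74.99 RPKM, against 21.9 over all 12502 tested genes, and 81.1% of tested genes lay below that median. Although most of these proteins occur once per ribosome, their transcripts ranged 18.8-fold, from 12.04 RPKM for Mrpl40 to 226 for Mrpl13. Of the 71 genes, 46 lay between 20 and 100 RPKM, 22 above and 3 below, the last being Mrpl40, Mrps18c and Mrps36. RefSeq lists 2, 1 and 3 pseudogenes for these 3 genes, and Mrps36 is a member by its symbol only. Whether pseudogenes affected the low levels was not tested. The order of levels was much the same with aspirin. Across the 71 genes the log2 group means had a Pearson correlation of 0.89 between ASA and DMSO, a description across genes that share their libraries. Mrpl52 had the highest mean level of the large-subunit genes over all 6 libraries, with 199, 233 and 225 RPKM in ASA replicates 1, 2 and 3 and 177, 190 and 166 in DMSO replicates 1, 2 and 3. Its groups did not overlap, but its log2 fold change of 0.30 missed the threshold (adjusted p = 0.251). For Mrpl40, the lowest, the values were 12.7, 18.3 and 14.6 against 12.5, 11.0 and 12.7 RPKM (adjusted p = 0.388).

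Few mitoribosomal genes changed with aspirin. The test was limma on log2(RPKM + 0.1) over all genes, and a call needed an adjusted p (Benjamini-Hochberg) under 0.05. By it 2 members fell, Mrpl42 and Mrpl47, and 1 rose, Mrpl23. All 3 belong to the large subunit, and none of the 29 small-subunit genes passed in limma, where 9 of them had an unadjusted p under 0.05 and the smallest adjusted p was 0.0641. A limma-voom fit on the recovered reads, added after seeing the data, called Mrpl42 and Mrpl23 but not Mrpl47 (adjusted p = 0.0521) and no small-subunit gene. Over all tested genes 11.2% were called, 4.99% lower and 6.21% higher, so the 4.23% of members called was under the background in total, with 2.82% lower and 1.41% higher. For lower calls this order depended on the libraries and their weights: with library quality weights 45.1% of members were lower against 20.6% of all genes, and 7.04% higher against 25.3%. A p above the threshold does not show that the other 68 genes were unaffected. The median half-width of their 95% intervals was 0.50 on the log2 scale, taken over all 71 members, and 43 of the 71 intervals lay wholly between -1 and 1.

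Mrpl42, a mitochondria-specific protein of the large subunit, had the smallest adjusted p of all members. Its level was 15.4, 11.6 and 13.6 RPKM in ASA replicates 1, 2 and 3, against 36.8, 33.5 and 35.5 in DMSO replicates 1, 2 and 3. Each ASA library lay below every DMSO library, and replicates within a group were close. The group means were 13.5 ± 1.94 and 35.3 ± 1.67 RPKM (SD, n = 3). Mrpl42 was 2.61-fold lower (log2 fold change -1.38 ± 0.20 SE, limma adjusted p = 0.0148). Its 4 listed exons lie on the minus strand of chromosome 7 between 36573787 and 36595935 (Rnor_6.0), and all 4 were lower, by log2 differences between -1.47 and -1.19. Levels were uneven among the exons. The first and highest, at 36595869 to 36595935, carried 47.0, 31.2 and 38.4 RPKM in the ASA libraries and 110, 107 and 102 in the DMSO libraries. The second and lowest carried 1.41, 2.65 and 1.62 RPKM in the ASA libraries and 5.98, 4.87 and 3.97 in the DMSO libraries.

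Mrpl47 encodes the mitochondrial counterpart of bacterial L29, a protein at the rim of the exit tunnel. It had 18.4, 14.0 and 19.4 RPKM in ASA replicates 1, 2 and 3 and 34.8, 27.5 and 34.8 in DMSO replicates 1, 2 and 3. The groups did not overlap, and the lowest control was DMSO replicate 2. Mrpl47 was 1.88-fold lower (-0.91 ± 0.22 SE, limma adjusted p = 0.0432), and its 7 listed exons on chromosome 2 (119129485 to 119139448, minus strand) were all lower.

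Mrpl23 encodes another protein of the exit tunnel rim, the counterpart of bacterial L23, and moved the other way. Its levels of 122.6, 144 and 121 RPKM in ASA replicates 1, 2 and 3 lay above 76.3, 75.4 and 77.6 in DMSO replicates 1, 2 and 3. The 3 control libraries were nearly equal. Mrpl23 was 1.68-fold higher (0.75 ± 0.16 SE, limma adjusted p = 0.0320), with all 4 listed exons on chromosome 1 (215703936 to 215709226, plus strand) higher by 0.68 to 0.85.

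**Figure D1:**
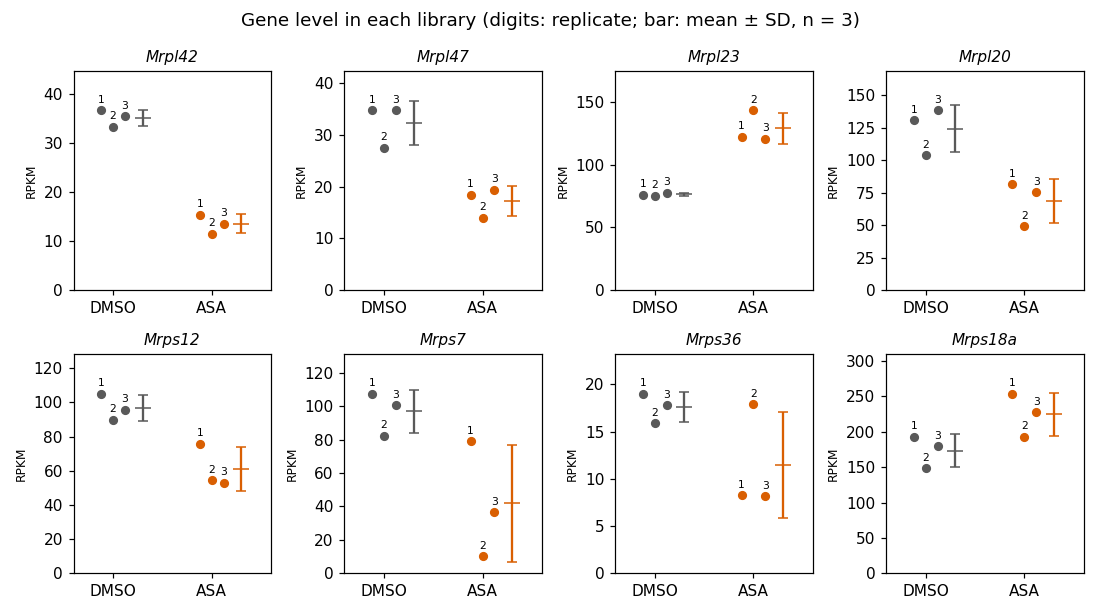
RPKM of 8 member genes in each DMSO (grey) and ASA (orange) library, with digits for the replicate and bars for mean ± SD (n = 3). Each axis starts at 0. Mrps36 is a member by its symbol only, as its protein belongs to the 2-oxoglutarate dehydrogenase complex. Mrpl42, Mrpl47 and Mrpl23 separate the groups with small spread, while ASA replicates 1 and 2 are far apart for Mrps7 and Mrps36.

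These calls depended on single libraries. All 3 were lost without ASA replicate 3, without DMSO replicate 1 or without DMSO replicate 3, and Mrpl47 and Mrpl23 also without DMSO replicate 2. Over all 12502 tested genes, 0, 91 and 0 were called without ASA replicate 3, DMSO replicate 1 and DMSO replicate 3. The loss in those fits was thus not particular to these members. Leaving out each of the 6 libraries in turn gave adjusted p-values from 0.00816 to 0.106 for Mrpl42, from 0.0261 to 0.209 for Mrpl47 and from 0.0161 to 0.166 for Mrpl23. Their log2 fold changes moved little, between -1.48 and -1.28, between -1.02 and -0.76, and between 0.67 and 0.79. Without ASA replicate 2, 7 members (9.86%) were lower (8.07% of all genes) and Mrpl23 higher (12.9% of all genes). Without ASA replicate 1, 14 members (19.7%) were lower, 7 of each subunit, against 8.27% of all genes, and Mrpl23 was higher, against 7.85%. Without DMSO replicate 2, Mrpl42 alone was lower (2.55% of all genes) and no member higher (2.5% of all genes). With both libraries numbered 2 left out, a fit chosen after seeing the data, 15 members (21.1%) were lower, against 11.4% of all genes, and Mrpl23 was higher, against 13.9%.

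Most members had lower group means with aspirin, by small amounts. The log2 fold change was negative for 53 of the 71 and positive for 18, with a median of -0.31, against a median of -0.06 and 53.5% negative over all tested genes. It lay under -0.5 for 24 members, between -0.5 and -0.25 for 15, within 0.25 of 0 for 22, between 0.25 and 0.5 for 8 and over 0.5 for 2. Of the 350 listed exons, 70.9% had a negative difference, against 54.9% of all exons in the table. In 39 members every listed exon was negative. The share of all genes with only negative exons was not computed, so that count has no background. The 2 groups of libraries did not overlap for 19 members lower with ASA, which is 26.8% of members against 18.8% of all tested genes. They did not overlap for 6 members that were higher (Mrpl10, Mrpl23, Mrpl40, Mrpl52, Mrps18b and Mrps35), which is 8.45% against 19.9%. An unadjusted p under 0.05 was reached by 22 members, 20 with a negative and 2 with a positive fold change. Over all 12502 tested genes 3753 reached it, a share close to that of the members. Relative to all genes the members were thus more often negative, and about as often past an unadjusted p of 0.05; neither difference was tested.

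**Figure D2:**
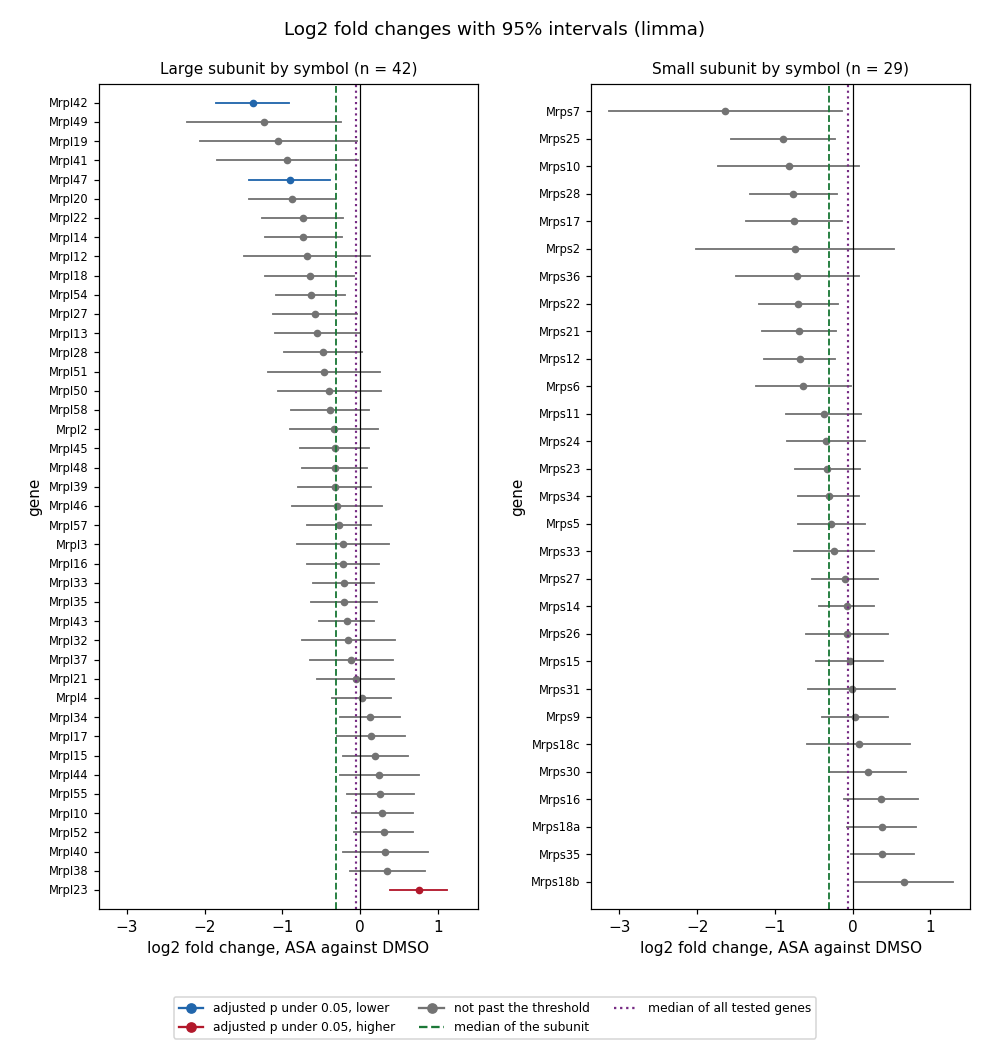
Log2 fold change of each of the 71 genes (points) with its 95% interval from limma (lines), by subunit. Blue and red mark the 2 lower and 1 higher genes past the threshold, the dashed line the subunit's median (-0.32 large, -0.31 small) and the dotted line the median of all tested genes (-0.06).

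The lower levels differed in extent between libraries. The median of the 71 genes relative to the DMSO mean was -0.12, -0.49 and -0.25 (log2) in ASA replicates 1, 2 and 3, and 0.10, -0.15 and 0.06 in DMSO replicates 1, 2 and 3. DMSO replicate 2 was therefore as low as ASA replicate 1, and the groups overlapped. In DMSO replicate 2, which also had the lowest Mki67 of the controls, 58 of 71 genes were below the DMSO mean and 55 had their lowest control value. Of all 12502 tested genes, 6903 were below the DMSO mean in that library. In ASA replicate 2 the median of all tested genes was itself -0.28, against 0.08 and 0.06 in the other ASA libraries. The middle 50% of members spread from -1.02 to 0.12 there, against -0.29 to 0.03 in ASA replicate 1. ASA replicate 2 held the lowest value of all 6 libraries for 37 members and the highest for 13. Shares of all genes with their lowest or highest value in a given library were not computed. Below the DMSO mean in ASA replicate 2 were 49 of the 71 members and 7611 of all 12502 tested genes. The part of proliferation and of this library's quality in the lower levels was not tested.

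**Figure D3:**
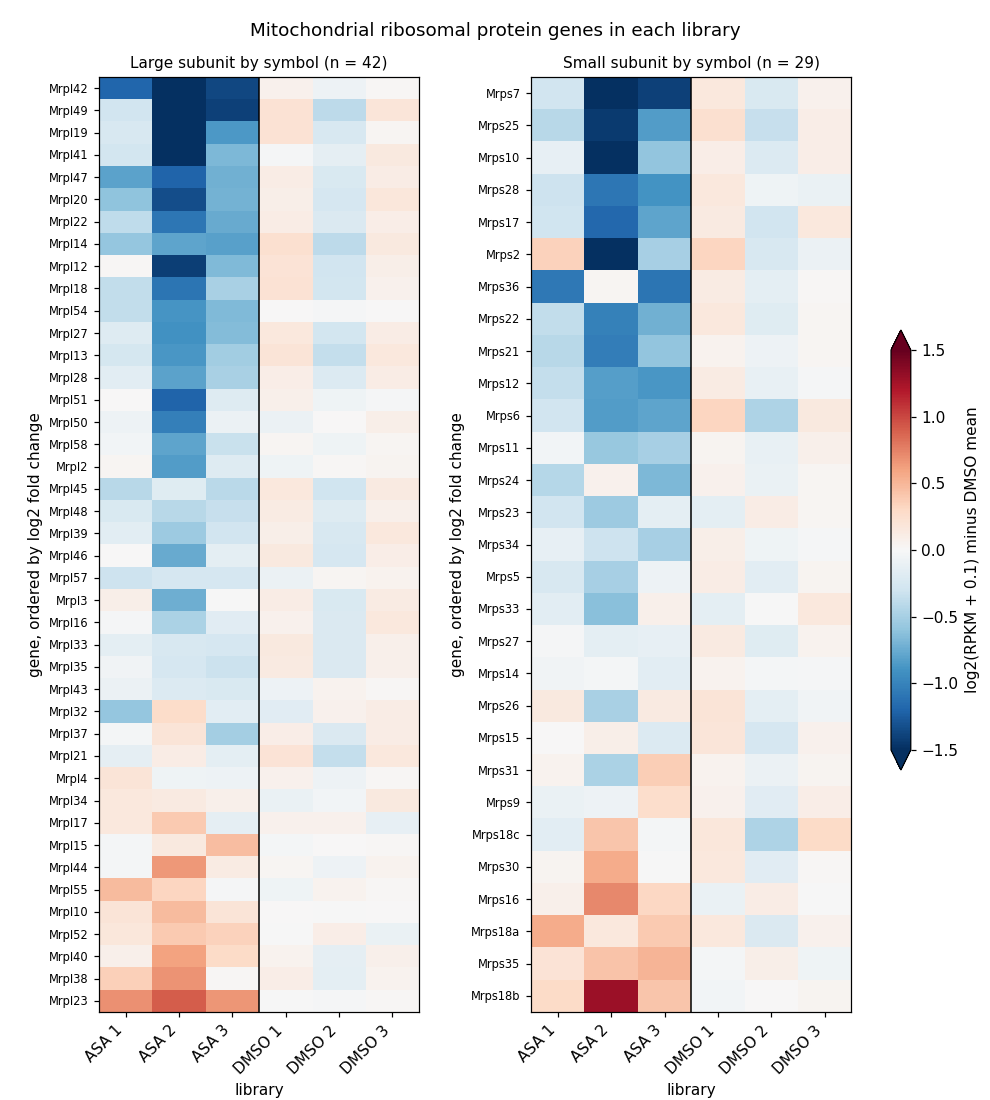
Log2(RPKM + 0.1) of every member gene in every library minus its DMSO mean, by subunit, ordered by log2 fold change; blue is lower and red higher, and colours saturate at 1.5. ASA replicate 2 holds the darkest cells, in both directions, and DMSO replicate 2 is faintly blue for most genes.

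Large and small subunits had nearly the same median change. The median log2 fold change was -0.32 for the 42 large-subunit and -0.31 for the 29 small-subunit genes, with interquartile ranges of -0.63 to 0.00 and -0.70 to -0.01. Fold changes were negative for 31 of 42 (73.8%) and 22 of 29 (75.9%). In each library the medians of the subunits relative to the DMSO mean differed by at most 0.05. The RPKM summed over large-subunit genes was 3217, 2712 and 2846 in ASA replicates 1, 2 and 3 and 3619, 3074 and 3579 in DMSO replicates 1, 2 and 3. Over small-subunit genes it was 2293, 2079 and 2121 against 2567, 2235 and 2492. For both sums DMSO replicate 2 lay below ASA replicate 1. The ratio of the large to the small sum was on average 1.35 ± 0.05 with ASA and 1.41 ± 0.03 with DMSO (SD, n = 3), with ranges of 1.304 to 1.403 and 1.376 to 1.436 that overlapped. All member genes together took 0.329 ± 0.022% of reads with ASA and 0.371 ± 0.032% with DMSO (SD, n = 3).

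Symbols do not always name the subunit. In solved mitoribosome structures the proteins of Mrps18a and Mrps30 sit in the large subunit, and that of Mrps36 belongs to the 2-oxoglutarate dehydrogenase complex, for which RefSeq uses the symbol Kgd4. With genes placed by structure, the medians were -0.29 for 44 large-subunit and -0.32 for 26 small-subunit genes. Genes with a bacterial counterpart had medians of -0.22 (24 large) and -0.37 (15 small), and mitochondria-specific genes -0.33 (19 large) and -0.24 (9 small). Differences between these medians were not tested. Single genes varied within a subunit with an SD of 0.46 for large-subunit and 0.50 for small-subunit symbols.

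Among the other large-subunit genes, those with the smallest p had lower levels in ASA that missed the threshold. Mrpl20, the counterpart of bacterial L20, had 81.3, 49.0 and 75.3 RPKM in ASA replicates 1, 2 and 3 and 131, 104 and 138 in DMSO replicates 1, 2 and 3 (-0.88 ± 0.24 SE, adjusted p = 0.0546). Mrpl14, which lies at the interface between the subunits, had 92.9, 80.1 and 78.9 against 165, 106 and 154 RPKM (adjusted p = 0.0638). Mrpl54, a mitochondria-specific protein, had 46.6, 32.5 and 38.2 against 60.5, 59.7 and 60.7 RPKM (adjusted p = 0.0693). For these genes every ASA library was below every DMSO library. The same held for Mrpl22, whose product lines the exit tunnel, with 80.7, 49.3 and 62.0 against 114, 90.5 and 112 RPKM (adjusted p = 0.0709). Mrpl49, another mitochondria-specific protein, had 85.1, 25.1 and 39.1 against 120, 78.6 and 117 RPKM (-1.24 ± 0.43 SE, adjusted p = 0.0975). Here ASA replicate 1 lay above DMSO replicate 2, and the groups overlapped.

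Mrpl12 encodes the stalk protein, present in several copies, that recruits translation factors to the ribosome. It had 124, 45.7 and 76.6 RPKM in ASA replicates 1, 2 and 3 and 140, 99.4 and 130 in DMSO replicates 1, 2 and 3. The groups overlapped and the log2 fold change of -0.69 ± 0.35 (SE) was not past the threshold (adjusted p = 0.231). It was -1.04 without ASA replicate 1 (adjusted p = 0.0515) and -0.32 without ASA replicate 2 (adjusted p = 0.371). Mrpl58, a release factor relative built into the large subunit that frees stalled chains, had 84.9, 50.8 and 69.2 against 89.7, 83.5 and 89.7 RPKM (adjusted p = 0.269).

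In the small subunit 8 of the 22 genes with a negative fold change had groups that did not overlap, 27.6% of all 29 small-subunit genes against 18.8% of all tested genes, and none passed the test. Mrps12, a protein of the decoding centre, had 75.6, 54.4 and 52.9 RPKM in ASA replicates 1, 2 and 3 and 105, 89.7 and 95.5 in DMSO replicates 1, 2 and 3 (-0.68 ± 0.20 SE, adjusted p = 0.0641). Mrps21 had 57.5, 37.5 and 50.9 against 79.7, 73.1 and 78.3 RPKM (adjusted p = 0.0688). Mrps22, which exists only in mitochondria, had 52.2, 33.4 and 40.8 against 75.1, 59.2 and 68.7 RPKM (adjusted p = 0.0765). In each of them ASA replicate 2 or 3 was lowest. Mrps28 had a log2 fold change of -0.76 (adjusted p = 0.0800), Mrps25 of -0.90 (adjusted p = 0.0845) and Mrps17 of -0.76 (adjusted p = 0.106), with no overlap between the groups.

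Mrps7 had the most negative fold change of all members and was not past the threshold. Its product binds the small ribosomal RNA in the head of the subunit. The level was 78.9, 10.1 and 36.4 RPKM in ASA replicates 1, 2 and 3, against 108, 82.4 and 101 in DMSO replicates 1, 2 and 3. The groups did not overlap, but ASA replicate 1 was close to the lowest control and ASA replicate 2 far below it. The log2 fold change was -1.64 ± 0.65 (SE, adjusted p = 0.136). It was -0.84 without ASA replicate 2 (adjusted p = 0.103) and -2.32 without ASA replicate 1, where it passed (adjusted p = 0.0322). All 5 of its listed exons on chromosome 10 were lower, by -1.88 to -1.56.

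Mrps36, the gene of the dehydrogenase complex, showed the opposite arrangement. It had 8.27, 17.9 and 8.16 RPKM in ASA replicates 1, 2 and 3 and 19.03, 15.9 and 17.8 in DMSO replicates 1, 2 and 3. ASA replicate 2 lay among the controls and the other ASA libraries well below them. The log2 fold change of -0.71 had an adjusted p of 0.205. Without ASA replicate 2 it was -1.08 and passed (adjusted p = 0.0130); the other left-out libraries gave up to 0.430.

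Of the 3 paralogues of bacterial S18, Mrps18a and Mrps18b had positive log2 fold changes and Mrps18c had no clear direction, none past the threshold. Mrps18b had 133, 267 and 145 RPKM in ASA replicates 1, 2 and 3 and 106, 110 and 112 in DMSO replicates 1, 2 and 3. Every ASA library was above every control, but ASA replicate 2 was far above the rest, and the log2 fold change of 0.66 ± 0.27 (SE) missed the threshold (adjusted p = 0.149). Mrps18a, the small-subunit symbol with the highest mean level, had 254, 193 and 227 against 193, 148 and 180 RPKM (adjusted p = 0.229). Mrps18c had 14.1, 21.2 and 15.6 against 17.9, 11.5 and 19.3 RPKM (0.08 ± 0.29 SE, adjusted p = 0.876). For Mrps18c only ASA replicate 2 lay above the DMSO mean (0.42 on the log2 scale, against -0.16 and -0.03 in ASA replicates 1 and 3). Mrps30 had 57.6, 82.4 and 55.9 against 62.5, 49.8 and 56.6 RPKM (adjusted p = 0.557), with overlapping groups. Leaving out ASA replicate 2 moved several log2 fold changes by over 1.5 times, from 0.66 to 0.35 for Mrps18b, from 0.20 to 0.02 for Mrps30, from 0.32 to 0.18 for Mrpl40 and from -0.39 to -0.19 for Mrpl58, none past the threshold either way.

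Mitoribosomal proteins that carry other symbols were examined beside the members. None of these 5 genes passed in limma, where 2 had an unadjusted p under 0.05. Dap3, a GTP-binding protein of the small subunit, had 69.5, 40.5 and 53.3 RPKM in ASA replicates 1, 2 and 3 and 87.1, 71.6 and 87.5 in DMSO replicates 1, 2 and 3 (-0.62, adjusted p = 0.122). Ptcd3, a pentatricopeptide repeat protein near the messenger's entry, had 39.4, 31.3 and 30.8 against 67.0, 41.7 and 59.7 RPKM (adjusted p = 0.0879). Gadd45gip1 and Chchd1 followed with -0.46 and -0.33 on the log2 scale (adjusted p = 0.191 and 0.240). For these 4 genes (80% of the 5) every ASA library lay below every control, against 18.8% of all tested genes. Aurkaip1 had a log2 fold change of 0.42 (adjusted p = 0.226).

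Genes that build or serve the mitoribosome were mixed. Of 25 tested genes of assembly and ribosomal RNA modification, 1 rose (4%, against 6.21% of all tested genes) and none fell (against 4.99%). Their median log2 fold change was 0.15. The gene that rose was Rpusd3, of the pseudouridine synthase family, with 29.3, 29.1 and 34.0 RPKM in ASA and 16.1, 16.2 and 14.5 in DMSO libraries (1.96-fold, adjusted p = 0.0275). For Mpv17l2, Mtg1 and Mettl17, which take part in assembly, the log2 fold change was 1.21, 0.73 and 0.97 (adjusted p = 0.0545, 0.0546 and 0.0613). For 10 of the 25 (40%) every ASA library was above every control, against 19.9% of all tested genes, and for 4 (16%) below, against 18.8%. Of 18 translation factors and partners 1 fell (5.56%, against 4.99% of all tested genes), with a median of -0.25. This was Gatb, a subunit of the amidotransferase that makes glutaminyl-tRNA in mitochondria, with 7.995, 5.12 and 5.51 against 20.3, 15.9 and 19.2 RPKM (2.99-fold, adjusted p = 0.0197). Slirp, an RNA-binding protein that stabilises mitochondrial messengers, was at -0.75 on the log2 scale, the elongation factor Gfm1 at -0.9974 and the recycling factor Mrrf at 0.85 (adjusted p = 0.0524, 0.0788 and 0.0969).

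Of 21 genes of mitochondrial DNA transcription, replication and RNA processing 1 fell (4.76%, against 4.99% of all tested genes). The median was -0.33. Hsd17b10, a subunit of the mitochondrial RNase P that frees transfer RNAs, had 92.8, 84.9 and 73.8 RPKM in ASA and 156, 146 and 160 in DMSO libraries (1.84-fold, adjusted p = 0.0242). For Fastk, Mgme1 and Tbrg4 the log2 fold change was 0.82, -1.41 and -0.58 (adjusted p = 0.0699, 0.160 and 0.166). None of 8 regulators of nuclear mitochondrial genes passed in limma, and none had an unadjusted p under 0.05. The transcription factor Sp1 came nearest (32.4, 103 and 57.8 RPKM in ASA, 33.7, 27.5 and 32.02 in DMSO libraries, adjusted p = 0.168), with overlapping groups, and the receptor Esrra had a log2 fold change of 0.27. Myc had 87.9, 71.9 and 102 RPKM in ASA and 63.7, 70.5 and 70.2 in DMSO libraries (adjusted p = 0.257), and Yy1 39.4, 44.4 and 42.5 against 48.4, 51.9 and 50.8 (adjusted p = 0.325). Rpusd3, Gatb and Hsd17b10 lost their calls when DMSO replicate 1, DMSO replicate 3 or ASA replicate 3 was left out (adjusted p up to 0.162, 0.125 and 0.150), and Rpusd3 and Hsd17b10 also without DMSO replicate 2. Over all genes 91, 0 and 0 of 12502 were called without DMSO replicate 1, DMSO replicate 3 and ASA replicate 3, respectively.

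Mitoribosomal genes were set beside other highly expressed gene classes. Of 73 nuclear subunits of oxidative phosphorylation 21 fell (28.8%) and none rose, with a median log2 fold change of -0.61. Their medians of -0.48, -0.59 and -0.70 in ASA replicates 1, 2 and 3 all lay below those of the DMSO libraries, -0.05 to 0.05, unlike the overlapping medians of the mitoribosomal genes. Of 36 proteasome subunits 9 fell (25%) and none rose, with a median of -0.76. Over all tested genes 4.99% fell and 6.21% rose. The groups did not overlap for 28 proteasome genes lower with ASA (77.8%, against 18.8% of all tested genes) and 3 higher (8.33%, against 19.9%). None of 68 cytosolic ribosomal protein genes passed in limma, where 2 had an unadjusted p under 0.05. Their median was 0.10, and their library medians were -0.43, 0.63 and 0.27 in the ASA replicates. Several of these genes, among them Rps4x, Rps13 and Rpl32, had only 1 listed exon. Mean levels ranged from 2.17 RPKM for Rpl35a to 4362 for Rplp1. Whether reads of pseudogenes entered the cytosolic ribosomal rows was not tested. Of the 13 mitochondrially encoded messengers, the templates of the mitoribosome, 1 fell (Mt-nd3, 7.69% of them), with a median of -0.35. Their log2 fold changes were negative for 9 and positive for 4, among the latter Mt-co1 (0.66) and Mt-atp6 (0.56), not past the threshold. Their summed RPKM was 29420, 59300 and 34640 in ASA replicates 1, 2 and 3 and 34210, 30280 and 37130 in DMSO replicates 1, 2 and 3, with overlapping groups. For Mt-nd3 most values were fractions of reads, which makes it uncertain. The differences between these classes and the mitoribosomal genes were not tested.

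**Figure D4:**
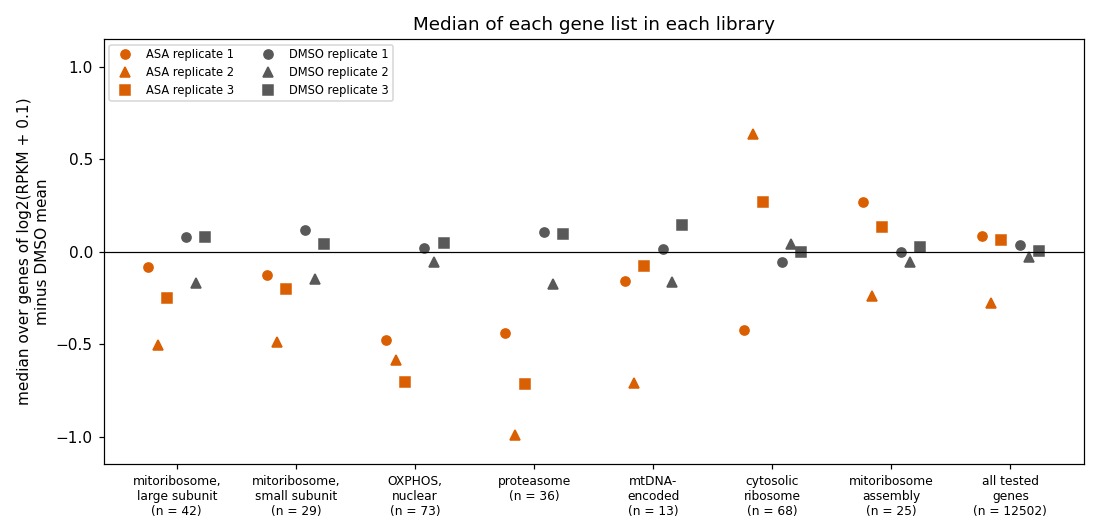
Median over each gene list of log2(RPKM + 0.1) minus the DMSO mean, in every ASA (orange) and DMSO (grey) library; symbols mark the replicate. For both mitoribosomal subunits ASA replicate 1 lies above DMSO replicate 2, while for oxidative phosphorylation and proteasome genes all 3 ASA libraries lie below all 3 controls.

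The members share features of gene structure. They were short, with a median of 588 bases of listed exon in 4 exons, against 1219 bases in 7 exons over all genes of the table. They lie on 18 chromosomes, with 12 on chromosome 10 and 11 on chromosome 1. For 17 of 71 (23.9%) a gene on the opposite strand began within 1000 bases of the member's first listed exon, against 4.13% of all genes in the table. Mrpl46 and Mrps11 formed such a pair with each other, 334 bases apart, with a log2 fold change of -0.30 and -0.37. Mrpl47 began 343 bases from Ndufb5, a subunit of respiratory complex I, which also fell (-0.90, adjusted p = 0.0319), from 306, 326 and 343 RPKM in DMSO to 164.5, 214 and 148 in ASA libraries. Mrpl32 began 253 bases from Psma2, a proteasome subunit, and only Psma2 passed the test (-1.17, adjusted p = 0.0216, against -0.15 for Mrpl32, adjusted p = 0.714). Mrps7 and Gga3, 295 bases apart, were at -1.64 and 1.05 on the log2 scale, neither past the threshold (adjusted p = 0.136 and 0.0664). Of the 15 partners outside the family, 2 fell (13.3%) and none rose, against 4.99% lower and 6.21% higher over all tested genes. Mrpl57 overlaps its partner Ska3, and many of its values were not whole reads, so reads of these genes cannot be told apart.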

How the data were processed

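RNA sequencing values of 3 ASA and 3 DMSO libraries were used, with replicate numbers in accession order. Per the submitters' processing notes, tools included edgeR 3.26.8, TopHat2 2.1.0, Bowtie2, cutadapt 1.14 and Trim Galore 0.4.1, and the build was Rnor_6.0. Not given in the sources used here: counting tool, strand use, annotation. The authors deposited log2 RPKM per exon. Undoing the log showed a constant of 0.00292 reads per 1000000, which was removed; 95.7% to 96.8% of values were then whole reads within 0.02 read. For 16 members, Mrpl22, Mrpl49, Mrpl52, Mrpl57 and Mrpl58 among those named, over 10% of values were not whole, so their levels are uncertain, and for 21 RefSeq (GRCr8) lists pseudogenes. All 3 called members are among the 21, Mrpl42 with 2 pseudogenes, Mrpl47 with 2 and Mrpl23 with 1. Whether reads of pseudogenes entered their levels was not tested. In RefSeq 70 of the 71 symbols matched, and Mrps36 matched as Kgd4. In every exon row at least 4 libraries had over 10 reads.

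Reads were summed over listed exons per gene. The test was limma 3.58.1 (lmFit, eBayes with trend, two-sided) on log2(RPKM + 0.1) over 12502 genes with mean RPKM of at least 0.5, adjusted over all of them; folds are on that scale. It was tested on simulated data. Between replicates the chi-square of reads per degree of freedom was 119.2 to 1083, far above sampling noise, and none were merged. Members and lists were chosen with earlier results of these data known; the lists for oxidative phosphorylation (trimmed once after its values were seen), the proteasome, cytosolic ribosomes, mitochondrial messengers and proliferation were set after seeing the data. Genes named were the 8 smallest p per subunit, the highest and lowest levels, positive changes with p under 0.05, fixed members and up to 4 per related list; Mrpl10, Mrpl13, Mrpl32, Mrpl46, Mrpl57, Mrps11, Mrps18c, Mrps35, Ndufb5, Psma2, Gga3, Ska3 and Mt-nd3 were named after their values were seen.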

Additional observations from a re-analysis of the deposited data

How the results depend on the processing

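Over all genes 1400 were called, 2 members lower and 1 higher, with a median log2 fold change of -0.31 over members and a difference between subunit medians (large minus small) of -0.01. Left-out libraries gave 0 to 2617 calls over all genes, 0 to 14 members lower, 0 to 1 higher, medians of -0.34 to -0.19 and subunit differences of -0.0750 to 0.0589. With no call, the smallest adjusted p over all genes was 0.0803 without ASA replicate 3 and 0.0790 without DMSO replicate 3, where 14 and 12 members had an unadjusted p under 0.05. Members called lower numbered 5 with rescaled libraries (7.04%, against 6.27% of all genes), 1 without a variance trend (1.41% against 3.78%; 0 higher), 1 with each gene valued by its median exon (against 3.43%) and 1 with voom on recovered reads (against 4.97%). The median exon gave a subunit difference of 0.0535. Library quality weights called 5745 genes, with 32 members lower (45.1%, against 20.6% of all genes) and 5 higher (7.04% against 25.3%); they were estimated gene by gene, a choice made after the default method failed to converge and its result had been seen. Leaving out both libraries numbered 2 called 3153 genes, with 15 members lower and a subunit difference of -0.0628. Of these alternatives, voom and the last were added after seeing the data. The median over members stayed negative in all 17 alternatives. The 44 genes named by rule leave out those named after their values were seen, Mrps18c among them. Of 747 values for these 44 genes under alternatives, 1 reversed, Mrps30 at -0.0678 without both libraries numbered 2. Among the same values 26 lost a call and 86 gained it. The cause was not tested. No paired analysis was possible because the labels give no replicate numbers shared by the groups.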
